A study of Saccharomyces cerevisiae with 6 samples.

Results

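The regions described here are the stretches of the budding yeast genome that lie between 2 neighboring protein-coding genes that point towards each other, so that the 3' ends of both genes border the gap. All gaps of 200 bp or more on the 16 nuclear chromosomes, outside 25 kb of each chromosome end, were taken. This gave 813 convergent regions among 4618 intergenic regions, the others being 1343 divergent regions (between 2 gene starts) and 2462 tandem regions (between an end and a start). Transposon insertions had been mapped for 6 TFs, and there was 1 library for each of Rgt1, Eds1, Leu3, Ino4, Zap1 and Sfp1. Every library was made in strain BY4741 of genotype sir4D, which lacks its own SIR4 gene. A plasmid supplied the TF joined at its C-terminus to Sir4, and a second plasmid supplied a HIS3-marked Ty5 under the GAL1/10 promoter. Each library was grown from a single clone on galactose, and no library without a TF was analysed here, so each TF was compared with the other 5.

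In this calling cards assay, the TF carries Sir4 to the DNA it occupies, Sir4 recruits the Ty5 retrotransposon, and Ty5 inserts nearby. Yeast TFs bind mostly upstream of gene starts, in stretches with few nucleosomes. A gap between 2 converging genes holds their transcription terminators and their downstream sequence, and neither gene's own promoter, so TF binding sites are rarely looked for there. Among the TFs, Rgt1 represses hexose transporter genes and Eds1 is its paralog, Leu3 regulates branched-chain amino acid synthesis, Ino4 acts with Ino2 on phospholipid synthesis genes, Zap1 responds to zinc, and Sfp1 acts on ribosomal protein and ribosome biogenesis genes.

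The file positions follow release R61, and the gene table follows R64. On 15 chromosomes the insertions fitted the gene table best at a shift of 30 bp or less in either direction. On chromosome XI the best fit was at 300 bp, where 37.3% of positions fell in genes, against 47.1% unshifted. The 45 convergent regions of chromosome XI are therefore members without a value in what follows, which leaves 768 convergent regions among 4361 intergenic ones. The 768 add up to 361.632 kb. They were short, with a median of 322 bp, against 544 bp for divergent and 418 bp for tandem regions, and 335 of them were under 300 bp. Gaps less than 10 bp above the length limit (39 regions) held 9.64 insertions per kb summed over the 6 libraries, and gaps up to 10 bp below it (32 gaps) held 8.92. The libraries held 15951 (Ino4) to 75550 (Leu3) insertions in all. In the convergent regions, the Leu3 library had 1621 insertions, Sfp1 1411, Eds1 1092, Rgt1 724, Ino4 642 and Zap1 482. This was 2.28% (Leu3) to 4.28% (Ino4) of a library's insertions, in sequence that makes up 3.17% of the chromosomes used.

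Convergent regions were poorer in insertions than the other intergenic regions and richer than the genes themselves, in every library. Eds1 insertions numbered 3.02 per kb in convergent regions, against 8.27 in divergent regions and 0.975 in gene bodies. Ino4 insertions numbered 1.78 per kb in convergent regions, against 4.41 in divergent regions and 0.491 in gene bodies. Leu3 insertions numbered 4.48 per kb in convergent regions, against 21.2 in divergent regions and 2.79 in gene bodies. Rgt1 had 2.00 per kb in convergent regions, 5.48 in divergent regions and 0.695 in gene bodies, and its tandem regions, which include those of the hexose transporter genes, held 12.0. Sfp1 had 3.90 per kb in convergent regions, 10.3 in divergent regions and 1.09 in gene bodies. Zap1 had 1.33 per kb in convergent regions, 4.18 in divergent regions and 0.551 in gene bodies. In no library did the 95% Poisson intervals of the convergent density meet those of another kind of sequence. All intervals of counts given here cover counting error only, since PCR reads carried no molecular identifiers and some positions repeat.

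**Figure D1:**
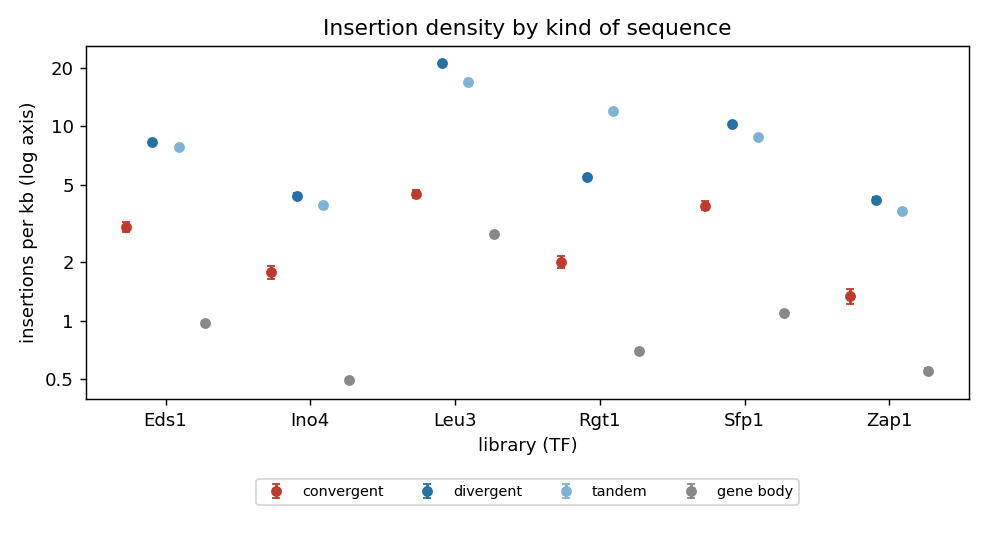
Insertions per kb (log axis) in convergent, divergent and tandem regions and in gene bodies, for each of the 6 libraries. Points are densities over all regions of a kind and bars are exact 95% Poisson intervals; the convergent point lies between the gene body and both other intergenic kinds in every library, as for Leu3 with 4.48 in convergent regions, 21.2 in divergent regions and 2.79 in gene bodies.

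The ratio of convergent to divergent density ranged over the libraries from 0.212 (Leu3) to 0.403 (Ino4), with a geometric mean of 0.334. With insertions within 5 bp counted once, the Leu3 ratio was 0.355, and Rgt1 (0.326) and Zap1 (0.334) were lower. All 6 libraries were below 1 (exact two-sided sign-flip permutation test over the 6 libraries, p = 0.03125, the smallest p that 6 libraries allow). The ratio of convergent to tandem density was 0.167 in the Rgt1 library and 0.265 to 0.450 in the others, with a geometric mean of 0.328 (exact permutation p = 0.03125). With insertions within 5 bp counted once, that ratio was 0.359 for Rgt1 and 0.425 for Leu3. Against gene bodies the ratio was 1.61 (Leu3) to 3.61 (Ino4), with a geometric mean of 2.77 (exact permutation p = 0.03125). Here the libraries serve as repeats of the comparison between kinds of sequence, and each TF on its own has no replicate. All libraries share the same regions, so the permutation p here and below does not measure the spread between regions. The Rgt1 value rests on 1 region: without the gap between AHT1 and HXT1, described further on, Rgt1 had 0.899 insertions per kb in convergent regions, its ratio to divergent regions was 0.164, that to tandem regions 0.0748 and that to gene bodies 1.29. The gene bodies still included AHT1 itself, which held 1317 of their 5491 Rgt1 insertions.

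Insertions in convergent regions also carried fewer reads than those in divergent regions. The median was 3 reads per insertion in convergent and 4 in divergent regions for Eds1, 29 and 46 for Ino4, and 9 and 20.5 for Leu3. It was 2 in convergent and 3 in divergent regions for Rgt1, 19 and 31 for Sfp1, and 15.5 and 26 for Zap1. In tandem regions the median was 3 for Eds1, the same as in convergent ones. It was 36 there for Ino4, 20 for Leu3, 5 for Rgt1, 28 for Sfp1 and 29 for Zap1. The ratio of convergent to divergent reads was below 1 in 6 of 6 libraries with a geometric mean of 0.608 (exact permutation p = 0.03125). With insertions within 5 bp of each other counted once, the ratio was 0.700 and p = 0.0625 by the same exact test. Repeats of the same position made up 4.13% of Leu3 insertions in convergent regions, against 20.6% in divergent regions. For Rgt1 they made up 15.5% in convergent and 16.2% in divergent regions. The 724 Rgt1 insertions in convergent regions occupied 612 positions, and the 400 of them in AHT1-HXT1 occupied 292. Most of the Rgt1 repeats in convergent regions thus lay in that 1 gap.

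Many convergent regions were empty. No library had an insertion in 104 of the 768 convergent regions, or 13.5% (exact 95% interval 11.2 to 16.2%), against 17 of 1271 divergent regions (1.34%, interval 0.781 to 2.13%) and 34 of 2322 tandem regions (1.46%, interval 1.02 to 2.04%). Convergent regions were shorter, and the difference was also present among gaps of like length. Among gaps of 200 to 300 bp, 70 of 335 convergent regions were empty (20.9%, interval 16.7 to 25.6%), against 10 of 278 divergent regions (3.60%, interval 1.74 to 6.52%). Among gaps of 300 to 500 bp, 30 of 259 convergent regions were empty (11.6%, interval 7.95 to 16.1%), against 2 of 302 divergent regions (0.662%, interval 0.0803 to 2.37%). From 1000 bp upward none of the 58 convergent regions was empty, with an exact 95% interval up to 6.16%, and 4 of 198 divergent regions were. At the other end, 64 convergent regions had insertions in all 6 libraries, against 507 of the divergent regions. The share of convergent regions without an insertion was 42.6% in the Leu3 library, 46.7% in Sfp1, 50.8% in Eds1, 63.5% in Ino4, 71.7% in Zap1 and 79.0% in Rgt1.

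The longest convergent regions without any insertion were the 695 bp between the retrotransposon genes YGR161W-B and YGR161C-D on chromosome VII, the 552 bp between SIP5 and YMR141C on XIII, and the 544 bp between ADR1 and RAD9 on IV. ADR1 encodes an activator of glucose-repressed genes and RAD9 a DNA damage checkpoint protein, and both are long, of 3972 and 3930 bp, so that the nearest gene start facing the gap, that of YDR215C, lay 4504 bp away. Reads from retrotransposon genes match many copies in the genome, and the sources used here do not state how the alignment treated such reads.

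A convergent gap holds neither flanking gene's start, but where a flanking gene is short, the promoter of the gene behind it comes close. The gaps were therefore grouped by the length of the shorter flanking gene. Those with a flanking gene under 1000 bp (465 regions) held more insertions per kb than those with 2 longer genes (303 regions). The densities were 3.32 near and 2.50 far for Eds1, 1.93 and 1.50 for Ino4, and 5.13 and 3.36 for Leu3. They were 2.86 near and 0.509 far for Rgt1, 4.49 and 2.87 for Sfp1, and 1.48 and 1.07 for Zap1. The near to far ratio was above 1 in 6 of 6 libraries, from 1.28 (Ino4) to 5.62 (Rgt1), with a geometric mean of 1.78 (exact permutation p = 0.03125). Without AHT1-HXT1 the Rgt1 ratio was 2.21 and the geometric mean 1.51, with the same exact permutation p of 0.03125. With near set to under 500 bp, which moves AHT1-HXT1 to the far side, the geometric mean was 1.41, that of Rgt1 0.611, and the exact permutation p 0.125.

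Density fell along the whole scale of flanking gene length in the Leu3 library. With AHT1-HXT1 left out, Leu3 insertions numbered 6.45 per kb where the shorter gene was under 500 bp, 3.94 at 500 to 1000 bp, 3.73 at 1000 to 2000 bp and 1.93 at 2000 bp or more. Rgt1 insertions numbered 1.38, 0.896, 0.531 and 0.439 per kb over the same classes, in the same order. In Sfp1 they numbered 6.01, 3.15, 3.09 and 2.04. The other 3 libraries had their highest value in the shortest class and their lowest in the longest one, and in Eds1 and Zap1 the 2 middle classes stood in the other order, within their intervals. The 2 sides of a region were compared too. In the 360 regions with 1 flanking gene under 1000 bp and 1 longer, the side of the midpoint nearer the short gene held more insertions than the other side in every library, by 1.36 (Zap1) to 2.22 (Rgt1), with a geometric mean of 1.53 (exact permutation p = 0.03125). Without AHT1-HXT1 the geometric mean was 1.45 (exact permutation p = 0.03125).

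The same question was put more directly, in a measure chosen after the data had been seen, by the distance from each gap to the nearest coding-gene start that faces it, whichever gene it belongs to. This distance had a median of 2017 bp. It was under 1000 bp for 111 of 768 regions and under 500 bp for 20. Under 100 bp it left 2 regions, in which the annotated flanking gene overlaps another one, so that these gaps do border a gene start. The 20 regions with a start within 500 bp had 8.07 insertions per kb for Eds1, 4.22 for Ino4, 14.2 for Leu3, 2.91 for Rgt1, 10.04 for Sfp1 and 4.41 for Zap1. The 388 regions with none within 2000 bp had 2.45 for Eds1, 1.56 for Ino4, 3.74 for Leu3, 0.719 for Rgt1, 3.67 for Sfp1 and 1.06 for Zap1. Regions with a facing start within 500 bp were thus about as rich as the divergent regions of the same library for Eds1, Ino4, Sfp1 and Zap1, and poorer for Leu3 and Rgt1, a comparison that was not tested. With the boundary at 1000 bp the ratio of near to far density was 2.34 (geometric mean, 6 of 6 libraries above 1, exact permutation p = 0.03125) and 1.76 without AHT1-HXT1 (exact permutation p = 0.03125).

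**Figure D2:**
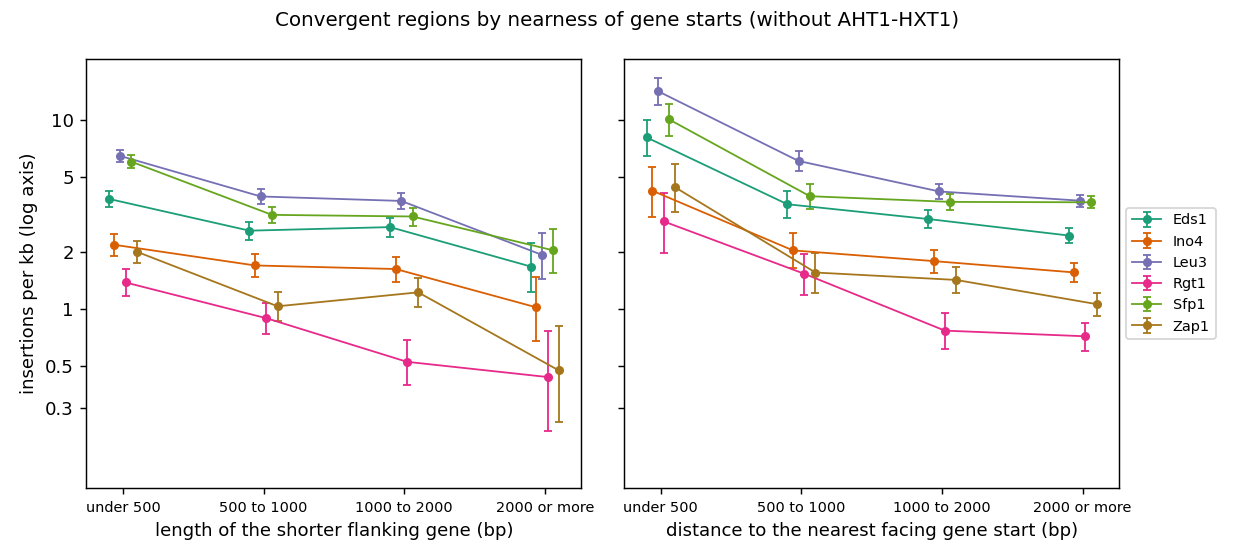
Insertions per kb (log axis) in convergent regions without AHT1-HXT1, against the length of the shorter flanking gene (left) and the distance to the nearest facing gene start (right), both in bp. Points are the 6 libraries and bars exact 95% Poisson intervals; each library is lowest in the class of 2000 bp or more, as for Leu3 on the left with 6.45 under 500 bp and 1.93 at 2000 bp or more.

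Far from gene starts, convergent regions came close to the level of gene bodies in some libraries and not in others. In the 303 regions whose flanking genes were both 1000 bp or longer, the ratio of convergent to gene body density was 3.06 for Ino4, 2.62 for Sfp1, 2.56 for Eds1, 1.94 for Zap1, 1.20 for Leu3 and 0.732 for Rgt1, with a geometric mean of 1.81 (exact permutation p = 0.09375, 5 of 6 above 1). The gene bodies include AHT1, which alone held 1317 of their 5491 Rgt1 insertions, and the Rgt1 ratio without that gene was not computed. Counted once per 5 bp, the geometric mean was 2.15 with all 6 libraries above 1 (exact permutation p = 0.03125). In the 63 regions with both flanking genes of 2000 bp or more, the Leu3 density was 0.693 of that in gene bodies (interval 0.519 to 0.907) and the Eds1 density 1.72 of it (interval 1.26 to 2.30). The geometric mean there was 1.17 (exact permutation p = 0.46875).

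In the Sfp1 and Leu3 libraries the density climbed from the gene into the gap over several bins of 100 bp. Around the 314 ends of flanking genes of 1000 bp or more that border convergent regions long enough to be followed, Sfp1 insertions numbered 0.860 per kb at 400 to 500 bp inside the gene, 1.34 in its last 100 bp, 2.32 in the first 100 bp of the gap and 3.79 in the next 100 bp. At the 743 ends that border tandem regions the same bins held 1.14, 3.03, 5.53 and 9.06. Leu3 insertions numbered 1.43, 1.94, 2.48 and 3.66 per kb in these 4 bins at convergent ends, and 2.76, 8.78, 10.8 and 16.3 at tandem ends. In both libraries every bin was lower at convergent than at tandem ends, and the gap between them widened towards the intergenic side.

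**Figure D3:**
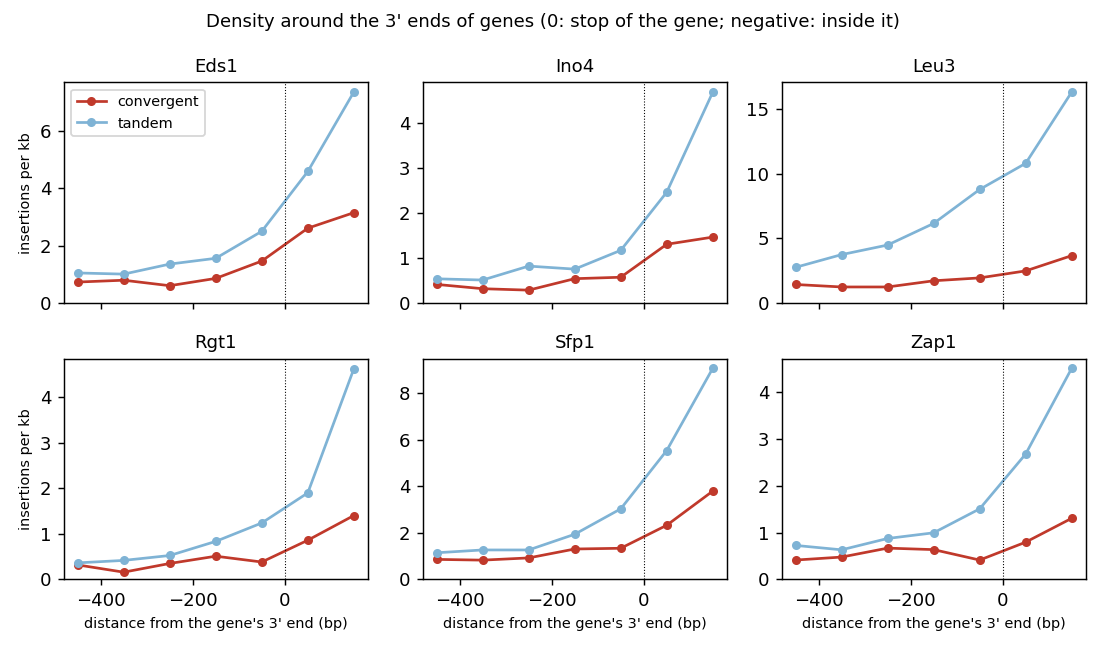
Insertions per kb in bins of 100 bp around the 3' ends of genes of 1000 bp or more, for the 314 ends at convergent regions and the 743 ends at tandem regions, by library. Distances in bp are negative inside the gene. Both lines are higher in the bins of the gap than inside the gene, and the convergent one stays lower. For Sfp1 the last bin holds 3.79 at convergent and 9.06 at tandem ends. Inside the gene the convergent line does not climb in every library. For Zap1 it is 0.414 both at 400 to 500 bp inside the gene and in its last 100 bp.

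Within the convergent regions of 400 bp or more (258 regions), the outer 100 bp on both sides held fewer insertions than the middle. The edge to middle ratio was 0.544 for Sfp1, 0.626 for Zap1, 0.628 for Leu3, 0.706 for Ino4, 0.929 for Rgt1 and 0.947 for Eds1, with a geometric mean of 0.714 (exact permutation p = 0.03125, 6 of 6 below 1). The intervals of Rgt1 (0.763 to 1.13) and Eds1 (0.793 to 1.13) held 1. When 50 bp were first taken off each side of every region, the geometric mean was 0.982 and the exact permutation p 0.84375. This setting kept only regions still of 400 bp or more after trimming. The parts of the bases next to the genes and of the changed set of regions cannot be told apart here.

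Regions that hold a non-coding gene, such as those of tRNAs or small nucleolar RNAs, did not stand apart by the test. The 60 such regions had more insertions per kb than the 708 without one in 5 libraries, by 1.19 (Eds1), 1.26 (Ino4), 1.37 (Leu3), 1.62 (Sfp1) and 1.76 (Zap1), and fewer in Rgt1, by a ratio of 0.561. The geometric mean was 1.22 (exact permutation p = 0.3125). Without AHT1-HXT1, which holds no such gene, the Rgt1 ratio was 1.62, the geometric mean 1.47 and the exact permutation p 0.03125. Without TAR1-YLR154C-G, which spans ribosomal RNA genes, the Sfp1 ratio was 1.23. The others were then 1.23 (Eds1), 1.18 (Ino4), 1.34 (Leu3), 0.584 (Rgt1) and 1.66 (Zap1). Among gaps of at least 400 bp the geometric mean was 1.00 (exact permutation p = 0.96875). By kind of gene, the 14 regions with a small nucleolar RNA gene held 33.2 insertions per kb summed over the libraries, the 42 with a tRNA gene 15.5 and those with none 15.4. Those with none include AHT1-HXT1, which held 458 of their 4176 insertions. The densest were YJR128W-EFM3 with SNR3 (62 insertions in 719 bp, of which 14 were Eds1, 6 Ino4, 20 Leu3, 4 Rgt1, 12 Sfp1 and 6 Zap1), RPS29A-STE23 with SNR34 and RPL36A-CMC4 with SNR11. In RPL36A-CMC4 the 37 insertions in 683 bp were 5 Eds1, 5 Ino4, 6 Leu3, 4 Rgt1, 12 Sfp1 and 5 Zap1. The nearest facing coding-gene start lay 221 bp from YJR128W-EFM3 (RSF2), 1149 bp from RPS29A-STE23 (REH1) and 1440 bp from RPL36A-CMC4 (ICY1).

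The insertions were spread unevenly over the members. The 10 densest regions with at least 10 insertions held 974 of the 5972 insertions, or 16.3%, and 34 regions held over 50 per kb summed over the libraries, against a median of 7.91. In 9 of these 10 densest regions the shorter flanking gene was under 1000 bp, as in 465 of all 768 convergent regions. In 7 of the 10 a gene start facing the gap lay within 1000 bp, as in 14.5% of all.

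The densest was the gap of 1222 bp between AHT1 and HXT1 on chromosome VIII, with insertions at file positions 289691 to 290909 (release R61). It held 400 insertions in the Rgt1 library, 38 in Eds1, 10 in Leu3, 7 in Sfp1, 3 in Ino4 and 0 in Zap1. Rgt1 stood apart from every other library, Eds1, its paralog, came next, and the others had 10 or fewer. This single gap held 55.2% of all Rgt1 insertions in convergent regions. HXT1 encodes a low-affinity glucose transporter and is a known target of Rgt1, but its promoter lies on its other side, where the 2043 bp towards HXT5 held 3127 Rgt1 and 367 Eds1 insertions. AHT1 is an annotated reading frame of 549 bp. HXT4, a high-affinity glucose transporter gene, starts 330 bp behind AHT1 and faces the gap, 879 bp away from it. HXT4 lies on the same strand as HXT1, so this gap is convergent only by the annotated AHT1. AHT1 itself held 1317 Rgt1 and 131 Eds1 insertions, against 0 to 3 in the other 4 libraries, and the 330 bp between AHT1 and HXT4 held 112 Rgt1 and 7 Eds1 insertions. Inside the gap the Rgt1 insertions were densest next to AHT1. The first 3 bins of 100 bp held 83, 83 and 57, the bin at 800 to 900 bp held 7, and a smaller rise followed with 26 and 38 at 900 to 1100 bp. The Eds1 insertions numbered 7, 13 and 8 in the first 3 bins and 10 in all those that followed. In the Rgt1 library the 400 insertions occupied 292 positions, and 61 remained when those within 5 bp of the one before were counted once. For Eds1 the 38 insertions came to 27 by the same count.

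**Figure D4:**
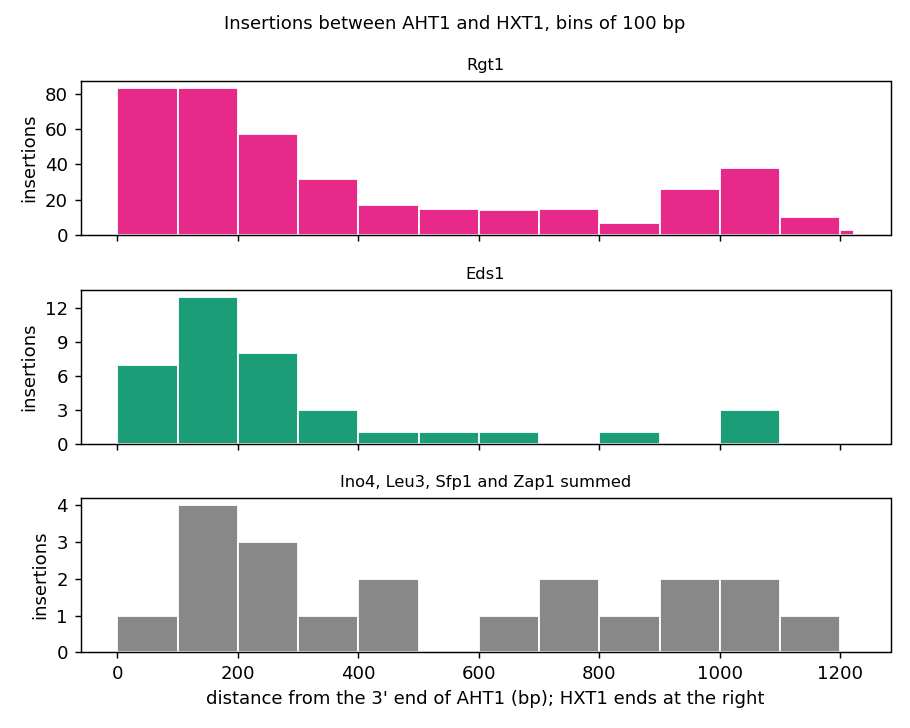
Number of insertions between AHT1 and HXT1 in bins of 100 bp, against the distance in bp from the 3' end of AHT1, in the Rgt1 library (top), the Eds1 library (middle) and the 4 other libraries summed (bottom); the 3 vertical axes differ. Rgt1 is highest beside AHT1, with 83 insertions in each of the first 2 bins, and has a smaller peak of 38 at 1000 to 1100 bp.

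Among the other 9 dense regions, most were hit in many libraries. The 315 bp between DON1 and YDR274C on chromosome IV (file positions about 1011280 to 1011590, rounded) held 40 Leu3, 23 Rgt1, 19 Eds1, 12 Sfp1, 9 Ino4 and 7 Zap1 insertions. It was the second densest member at 349 per kb, and no library was empty there. DON1 encodes a protein of the spore membrane, and behind YDR274C (372 bp) starts TLD1, 663 bp from the gap. Its insertions were clustered: the 40 of Leu3 came to 14 when those within 5 bp were counted once, and the 23 of Rgt1 to 9. The 989 bp between CHS5, of the exomer complex that exports cargo to the cell surface, and JIP3 on XII held 23 Sfp1, 20 Leu3, 17 Eds1, 12 Zap1, 11 Ino4 and 4 Rgt1 insertions. JIP3 overlaps MID2, a cell wall stress sensor gene whose start lies 7 bp from the gap, so this gap is convergent only by the annotated JIP3. The 846 bp between PEP8, of the retromer, and YJL052C-A on X held 29 Leu3, 14 Eds1, 13 Sfp1, 13 Zap1, 12 Ino4 and 8 Rgt1 insertions, and TDH1, a glycolytic gene, starts 387 bp away.

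The 520 bp between YJL077W-B (99 bp) and ICS3 on X held 25 Leu3, 17 Sfp1, 13 Eds1, 8 Rgt1, 5 Ino4 and 0 Zap1 insertions. YJL077W-A starts 133 bp from this gap and faces it. The 385 bp between AHP1, a thioredoxin peroxidase gene, and CCW12, a cell wall mannoprotein gene, on XII held 12 Leu3, 5 Eds1, 5 Rgt1, 5 Sfp1, 4 Ino4 and 4 Zap1 insertions. The 208 bp between SCM4 and YGR050C on VII held 24 insertions, the 254 bp between JJJ3 and YJR098C on X 28, and the 212 bp between MEO1 and VMA2, a vacuolar ATPase subunit gene, on II 22. These 3 had 1, 0 and 3 Rgt1 insertions, and 4 to 8 of Leu3. Of the 10 densest regions, 5 had insertions in all 6 libraries. Over all 768 regions the insertions per kb of pairs of libraries were weakly related, with Spearman's rho of 0.233 to 0.420 over the 15 pairs, against 0.379 to 0.603 over the divergent regions. These are descriptions across regions, in which both densities of a pair are divided by the same gap length. The part of the sparse counts in the difference was not tested.

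**Figure D5:**
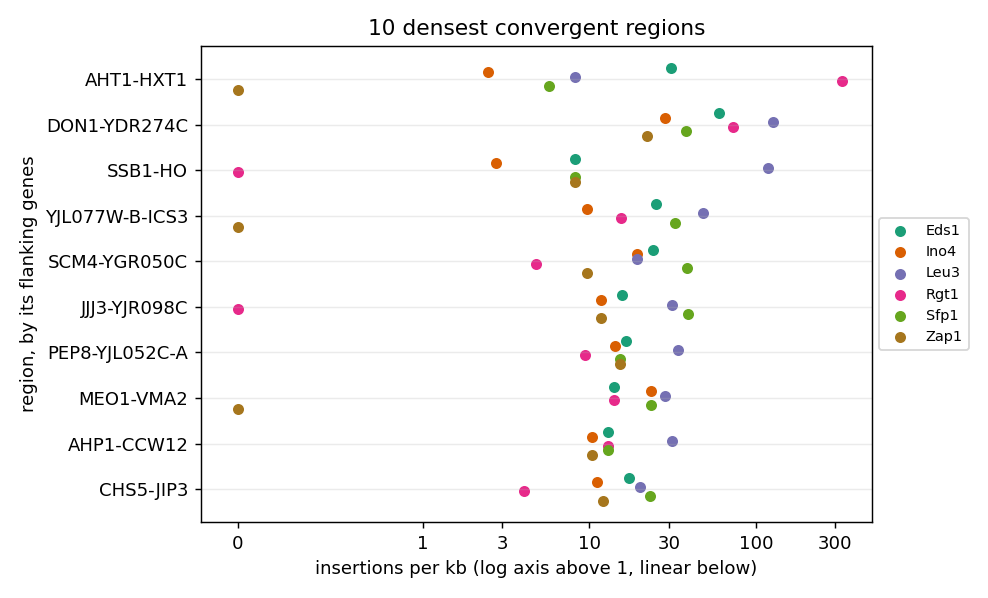
Insertions per kb of each library (log axis above 1, linear below) in the 10 convergent regions with the most insertions per kb over all libraries. Each point is 1 library; AHT1-HXT1 is led by Rgt1 with 400 insertions and SSB1-HO by Leu3 with 43, while the libraries lie closer together in most other regions.

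Each TF library was compared with the other 5 pooled in every intergenic region by a one-sided Fisher's exact test, with Benjamini-Hochberg adjustment over all 4361 regions. In convergent regions the test called 2 regions for Rgt1 (1.26% of all intergenic regions were called), 2 for Leu3 (2.5% of all), 2 for Ino4 (0.436% of all), 8 for Sfp1 (2.77% of all), 0 for Eds1 (0.367% of all) and 0 for Zap1 (0.344% of all). As shares of the 768 convergent regions these were 0.260% for each of Rgt1, Leu3 and Ino4 and 1.04% for Sfp1, against 1.73%, 3.54%, 0.236% and 3.86% of the divergent regions. The convergent share was thus below that over all intergenic regions in every library, a difference that was not tested and that goes with the smaller numbers of insertions in convergent regions. For Eds1, 33 of the 768 convergent regions had an unadjusted Fisher's exact p under 0.05, against 296 of all 4361 intergenic regions. For Zap1 it was 18 of the 768, against 258 of all 4361. Both convergent shares were thus below those over all intergenic regions. The Eds1 background includes its paralog Rgt1: in AHT1-HXT1, 38 Eds1 insertions stood against 420 in the other 5 libraries, of which 400 were Rgt1. With the Rgt1, Ino4, Sfp1 or Zap1 library left out of the background, the test called 1 region for Eds1 each time, and without Leu3 0. With the other 5 libraries weighted equally, 2 regions each were called for Eds1 and Zap1. That setting used a one-sided binomial test that takes the mean share of the other libraries as known.

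For Rgt1 the called regions were AHT1-HXT1, with 400 of 28110 Rgt1 insertions used against 58 in the other 5 libraries (ratio 40.2, interval 30.5 to 54.0, Fisher's exact test with adjusted p = 1.60e-262), and the 809 bp between GCD11 and CHO1 on V. GCD11-CHO1 lies between the gene of a translation initiation factor 2 subunit and that of phosphatidylserine synthase. It held 10 Rgt1 insertions, 4 of Eds1, 2 of Ino4 and 1 each of Leu3, Sfp1 and Zap1 (ratio 6.48, interval 2.37 to 18.0, Fisher's exact adjusted p = 0.00953). It was not called when only insertions with 2 or more reads were used, or without the Leu3 library in the background. It lay 4358 bp from one of the 10 windows of 1 kb with the most Rgt1 insertions.

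For Leu3 the called regions were the 364 bp between SSB1 and HO on IV (file positions 46000 to 46242) and the 1142 bp between TIM9 and PXP1 on V. SSB1 encodes a chaperone of the ribosome and HO the mating-type endonuclease. SSB1-HO held 43 Leu3 insertions, 3 each of Eds1, Sfp1 and Zap1, 1 of Ino4 and 0 of Rgt1 (ratio 7.31, interval 3.62 to 16.3, Fisher's exact adjusted p = 5.04e-09). No gene start faced it within 3662 bp, and of the 10 densest regions it was the only one with both flanking genes over 1000 bp. Its 43 insertions occupied 36 positions and came to 14 when those within 5 bp were counted once, and it was then no longer called. TIM9-PXP1, which holds RPR1, the gene of the RNA of ribonuclease P, had 21 Leu3 insertions, 3 each of Sfp1 and Zap1, 2 of Eds1 and 1 each of Ino4 and Rgt1 (Fisher's exact adjusted p = 0.0223).

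For Ino4 the called regions were the 1005 bp between DOM34, a ribosome rescue factor gene, and CIT1, the gene of mitochondrial citrate synthase, on XIV, with 19 Ino4, 19 Eds1, 11 Leu3, 8 Sfp1, 7 Zap1 and 2 Rgt1 insertions (ratio 4.77, interval 2.64 to 8.28, Fisher's exact adjusted p = 2.70e-04), and HIS5-NUP159 on IX, between a histidine synthesis gene and a nuclear pore gene. The 19 of Ino4 came from a total of 15017 insertions used, and the 19 of Eds1 from 28932. HIS5-NUP159 rested on 4 Ino4 insertions and 1 of Leu3 (Fisher's exact adjusted p = 0.0449).

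For Sfp1 the largest count was in the gap of 7451 bp between TAR1 and YLR154C-G on XII, which spans ribosomal RNA genes. It held 151 Sfp1, 53 Leu3, 27 Ino4, 24 Zap1, 16 Eds1 and 5 Rgt1 insertions (ratio 5.67, interval 4.45 to 7.25, Fisher's exact adjusted p = 2.04e-40). All of them lay at file positions 459742 to 460572, and with insertions within 5 bp counted once the region was not called (151 Sfp1 insertions came to 44). The ribosomal DNA is a repeat array of which the genome sequence carries few copies, and the sources used here do not state how reads matching several copies were placed. The other 7 had 5 to 18 Sfp1 insertions: the 755 bp between RPS29A and STE23 (18 Sfp1, 10 Leu3, 8 Eds1, 5 Rgt1, 4 Zap1 and 3 Ino4; adjusted p = 0.0359 by Fisher's exact test), DFG16-HMS1 (12 Sfp1 of 25), QDR1-RPI1 (11 of 19), SMN1-RPS4B (8 of 14), MRPL27-SSH1 (6 of 8), LHP1-KNH1 (5 of 6) and YVC1-VPS21 (5 of 6). These last 3 and QDR1-RPI1 were named because they were called, after their values had been seen. Of these 8, only TAR1-YLR154C-G was called when the Leu3 library was left out of the background.

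The convergent regions that border known targets of each TF were then taken on their own. The lists of target genes were chosen with earlier results of these data known. Of 132 ribosomal protein genes, 55 bordered 54 convergent regions. The test called 2 of the 54 for Sfp1, RPS29A-STE23 and SMN1-RPS4B, against 1.04% of all convergent and 2.77% of all intergenic regions. Of the 54, 19 had no Sfp1 insertion, against 46.7% of all convergent regions. Together they held 129 Sfp1 insertions or 5.01 per kb, against 3.90 over all convergent regions. The median log2 ratio of Sfp1 to the other 5 (1 insertion added to each side) was 1.16 in the list and 1.23 over all 768 convergent regions, so the list's middle did not lie above that of the rest. This added insertion lifts regions with few insertions in any library, which is why the median over all regions is above 0. The longest of them, the 3766 bp between MID2 and RPS25B, held 21 Sfp1 insertions and 72 of the other 5.

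Of the zinc target genes of Zap1, 4 bordered a convergent region, next to ZRT2, ZRC1, COT1 (zinc transporter genes) and ZRG8, and the Zap1 library had 0 insertions in all 4, as it had in 71.7% of all convergent regions. The 8 regions at Ino4 targets held 5 Ino4 insertions, with 1 each at INO2, EKI1 and CHO2, 2 at CHO1 and 0 at SAM2, PSD1, PSD2 and CPT1, while 63.5% of all convergent regions had no Ino4 insertion. Those at Leu3 targets held 5 Leu3 insertions at LEU1 and 1 each at LEU2 and GDH1. The region behind LEU1 (243 bp, to MPO1) had 1 insertion in the other 5 libraries and did not pass the test (Fisher's exact adjusted p = 0.859). At the 3 regions behind HXT1, HXK2 and MIG1, glucose repression or transport genes, Rgt1 had 400, 0 and 0 insertions and Eds1 38, 0 and 0. Apart from AHT1-HXT1 and the 2 regions at ribosomal protein genes, no region behind a listed target was called for its TF.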

How the data were processed

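Calling cards insertions of 6 TFs were analysed, with 1 library per TF. The authors amplified the DNA downstream of Ty5 by inverse PCR after 3 digests (HinPI1, HpaII and Taq-alphaI). Reads were aligned to release R61, and the notes of the submitters name Novoalign, with no version stated in the sources used here. The deposited files list 1 insertion per line with chromosome, position and a raw count of its reads, without strand or normalization. The authors' insertions were counted as listed, whatever their reads. Repeated positions were kept, and the sources used here do not state what they stand for.

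Gene positions came from the RefSeq table of R64, whose coordinates are not printed, and strands of the 6002 coding genes from their systematic names. The fit of both releases was checked per chromosome by shifting positions by up to 1000 bp, and chromosomes with a best shift over 100 bp (XI) were left out. Densities carry exact Poisson and ratios exact conditional binomial 95% intervals. Ratios were tested over libraries by a two-sided exact sign-flip permutation test on log2 values. For each TF, its share of insertions was compared with that of the other 5 libraries pooled by a one-sided Fisher's exact test with Benjamini-Hochberg adjustment over 4361 regions, at 0.05. The other TFs' targets are part of this background. Named regions were the 10 densest with at least 10 insertions, up to 3 called per TF with the most insertions, the 3 longest empty ones, called regions at listed targets and the 3 densest with a non-coding gene; further called regions are named as such. The members and lists were chosen with earlier results of these data known. The distance to facing gene starts, the sides of a region's midpoint and the settings without AHT1-HXT1 or the ribosomal DNA were chosen after seeing the data. Alternatives counted distinct positions, merged insertions within 5 bp, required 2 reads, trimmed 50 bp per side, required 400 bp, left out 50 kb ends, the 10 richest windows of 1 kb of each library or regions at retrotransposon genes, put XI back, left out libraries, and changed the background of the test. The background with equal weights used a one-sided binomial test in place of Fisher's exact test. The statistics were tested on simulated counts. Python 3.11.15, pandas 2.3.3, NumPy 2.4.6 and SciPy 1.17.1 were used.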

Additional observations from a re-analysis of the deposited data

Results flagged for a closer look

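The values of the 6 libraries were searched for 1 that lay far from the other 5, in 7 ratios on the log2 scale, by Dixon's criterion, which chance meets in about 1 of 20 groups. It was met by 3 values. The ratio of convergent to divergent density was 0.212 in the Leu3 library, below the next lowest, and 20.6% of the Leu3 insertions in divergent regions repeated a position, against 4.13% in convergent regions. The Leu3 ratio was 0.255 on distinct positions and 0.355 with insertions within 5 bp counted once, where Rgt1 (0.326) and Zap1 (0.334) were lower. The near to far ratio was 5.62 in the Rgt1 library, and the non-coding to none ratio was 0.561 there. AHT1-HXT1 lay on the near side and held no non-coding gene, and without it these Rgt1 values were 2.21 and 1.62.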

How the results depend on the processing

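No paired analysis was possible because each TF has 1 library and the labels number no replicates that could pair the TFs; each ratio compares kinds of sequence within a library. The ratios of convergent to divergent, tandem and gene body density kept their direction and side of the threshold under all 11 alternatives, within 0.290 to 0.375, 0.286 to 0.435 and 2.41 to 3.25. Leaving out each library in turn gave 0.321 to 0.365, 0.308 to 0.376 and 2.62 to 3.08, and for near to far 1.41 to 1.90, edge to middle 0.675 to 0.754 and reads 0.583 to 0.649; 5 libraries cannot give an exact permutation p below 0.0625. Merging insertions within 5 bp moved the read ratio to 0.700, the non-coding ratio to 1.34 (Rgt1 1.26) and the ratio of far regions to gene bodies to 2.15. The non-coding ratio was 1.41 (Rgt1 1.87) without the richest windows and 1.47 (Rgt1 1.62) without AHT1-HXT1, but 1.00 among gaps of at least 400 bp and 1.10 with 50 bp trimmed. With 50 bp trimmed, in regions still of 400 bp or more, edge to middle was 0.982 (Eds1 1.25, Ino4 1.14, Rgt1 1.31). With near under 500 bp, near to far was 1.41 (Rgt1 0.611). The share of empty regions was 18.6% with at least 2 reads, 23.4% with 50 bp trimmed and 4.26% among gaps of at least 400 bp. The 14 calls became 7 with distinct positions, 2 with merged insertions, 7 with at least 2 reads, 5 without the richest windows, 8 with gene bodies tested too, and 5 and 7 with the Leu3 or the Rgt1 library left out of the background. With equal weights, where a binomial test took the background share as known, there were 30 calls, which include all 14. AHT1-HXT1 was called for Rgt1 in 17 of 17 alternatives and DOM34-CIT1 for Ino4 in 17 of 18. HIS5-NUP159 was called in 6 of 16. Depth limits single regions: the median convergent region held no Eds1, Ino4, Rgt1 or Zap1 insertion.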
